A study of Drosophila melanogaster with 2 samples.

Results

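The regions described here are 323 peaks of a tagged transcription factor that lie inside introns of autosomal fly genes, 501 to 3000 bp from a transcription start site. They come from chromatin immunoprecipitation with sequencing (ChIP-seq), in which DNA bound by a protein is pulled down with an antibody and sequenced. The material was whole Drosophila melanogaster embryos, male and female pooled, collected over 0 to 24 h, from 1 transgenic line that carries a fusion of the zinc-finger gene disco-r with eGFP, a fluorescent protein; the pull-down used an antibody to GFP. All samples belong to this 1 group, in 2 biological replicates numbered 2 and 3, and no wild-type or untagged embryos were analysed here. One label names disco, the neighbouring paralog of disco-r, as the fused gene. The promoter that drives the fusion is not given in the sources used here. The number of reads is unknown.

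A peak was a region on the authors' list thresholded by irreproducible discovery rate (IDR, which scores how alike 2 replicates rank regions). That list holds 7.95% of the 29347 candidate regions pooled over both replicates. The 323 were kept because the summit lay on chromosome 2, 3 or 4, in the body of a protein-coding gene, in no coding or untranslated exon, and between the distance limits above. They make up 13.8% of all IDR peaks and 17.0% of the 1903 autosomal ones. At such positions on the pooled list, 3338 candidates neither passed nor overlapped an IDR peak, and these served as the comparison. With the peaks they make 3661 regions, of which 323 (8.82%) were IDR peaks. Any candidate that overlapped an IDR peak without passing is left out of both counts. The IDR list equals the top of the pooled list by signal, so signal chose the peaks and is given below without a test.

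Disco-r and its paralog disco are nuclear zinc-finger proteins, and in the fly embryo the pair is needed for normal head and appendage development. Introns of fly genes, and above all those close to a start site, hold many enhancers, short stretches where transcription factors bind and control when and where a gene is transcribed. Many fly genes also have alternative promoters, so that an intron of a long transcript can lie just upstream of the start of a shorter one. Embryos were whole, so the share of cells in which a site was bound and the occupancy per cell cannot be told apart in a signal value.

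The 6-base words ACACTG and ACAGTG were those with the smallest p among words more frequent around the summits than in other candidates, and the stretches shown here are those that carry them in peaks with high signal. Each is 30 bases long and read 5′ to 3′ on the strand named, from the RefSeq sequence of the Release 6 assembly (dm6), with the word in capitals. The first 8 hold ACACTG and the last 4 hold ACAGTG; in CG31635 both words overlap at the same place on opposite strands.
CG11050, chr2L:6612623-6612652, plus strand: ggagccacaaagACACTGgtaaaaataatt
CG31635, chr2L:6647228-6647257, minus strand: agataataaataACACTGtgttaaaataaa
eff, chr3R:14738725-14738754, minus strand: cacttgaaccgtACACTGaacgaaatgggc
SCaMC, chr3L:12407116-12407145, minus strand: gatatttacattACACTGatgtttactttg
tmod, chr3R:30540465-30540494, minus strand: cctgccaaagttACACTGaaaaaaaaaaac
CG17834, chr2L:8534875-8534904, plus strand: ttattaaaattaACACTGtctataaactgc
LpR2, chr3R:25738248-25738277, minus strand: tcgcctctgcttACACTGtaataaaagttc
ImpL2, chr3L:4228293-4228322, plus strand: ataccacaaggtACACTGagagaaaggatt
Lk6, chr3R:11761017-11761046, plus strand: gagcatagttttACAGTGgcacataaacta
for, chr2L:3655712-3655741, plus strand: cctgagtcgaatACAGTGggacccccactt
Csk, chr3R:11649699-11649728, minus strand: tggtcacacgatACAGTGgccgcaaaagga
sick, chr2L:19865699-19865728, minus strand: gaaatgttgctaACAGTGctgaccgttttg

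Of the 12 sites, 8 belong to peaks among the 25 strongest, such as those in CG11050, Lk6, CG31635 and for, with pooled signals of 823, 793, 442 and 365. Those in tmod, CG17834, LpR2 and ImpL2 were taken down the order of signal, which ran from 222 to 194. The third base of the word, as printed, lay between 19 and 93 bp from the summit at all 12 sites.

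Summits were spread over the long autosomal arms, with 70 peaks on 2L, 84 on 2R, 76 on 3L and 93 on 3R. None lay on the small chromosome 4, where 29 candidates of the same position did not pass and 10 IDR peaks lay at other positions. Intron sequence between the distance limits covers 12.2 Mb, which is 11.1% of the 110 Mb of autosomes. Peaks in it numbered 26.4 per Mb, against 8.37 per Mb in introns more than 3000 bp from a start site and 17.2 per Mb over all autosomal sequence.

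Peaks were densest nearest a start site. There were 132 peaks at 501 to 1000 bp (41.2 per Mb), 76 from there to 1500 bp (27.7 per Mb), 50 at 1501 to 2000 bp (21.1 per Mb), 37 at 2001 to 2500 bp (17.8 per Mb) and 28 at 2501 to 3000 bp (15.3 per Mb). Candidates that did not pass numbered 307, 282, 270, 239 and 245 per Mb in the same bins. Of peaks and these candidates together, the share that passed was thus 11.8% in the nearest bin. It was 8.96%, 7.26% and 6.94% in the next ones and 5.87% in the farthest. The median distance was 1174 bp for peaks and 1433 bp for candidates that did not pass. These are counts over 1 pooled list and were not tested.

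**Figure D1:**
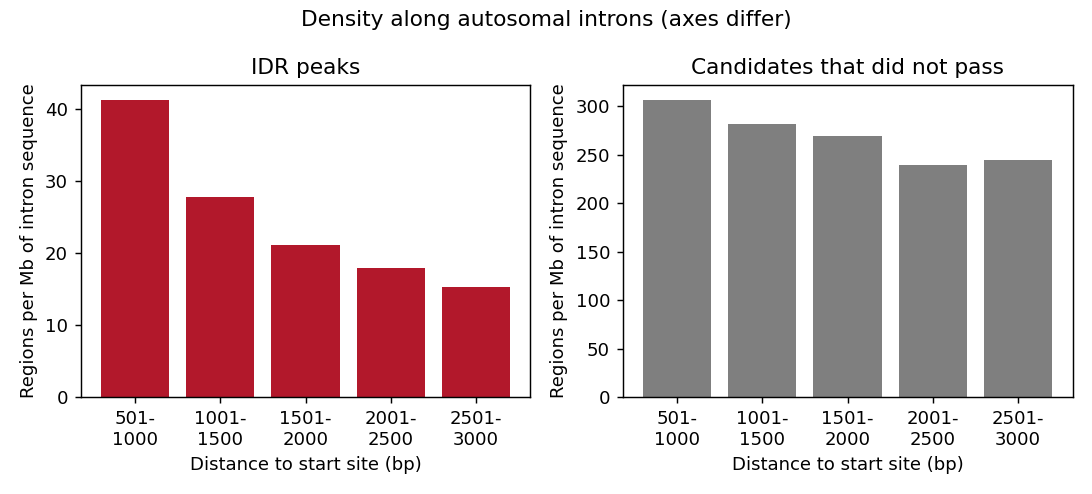
Regions per Mb of autosomal intron sequence (y axis) in 5 bins of distance from the nearest protein-coding start site (x axis, bp), for IDR peaks on the left and for candidates that did not pass on the right, on different y scales. Peaks are at 41.2 per Mb in the nearest bin and 15.3 per Mb in the farthest, and the other candidates at 307 and 245 per Mb.

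Signals on either side of the distance limits overlapped. Just inside the near limit lay peaks in aru (503 bp, signal 183), CG31523 (505 bp, 141) and CG42336 (507 bp, 83.4); just outside it lay summits in ACC (493 bp, 89.4), lola (491 bp, 173) and Eip63F-1 (488 bp, 132). Just inside the far limit lay CG32066 (2979 bp, 77.7), lili (2936 bp, 110) and upSET (2929 bp, 197), and just outside it siz (3011 bp, 81.5), trx (3011 bp, 220) and tna (3045 bp, 88.5). At the signal threshold the weakest peaks, in Sik3, in PGRP-LB with CG17230, and in Nak, all had a signal of 72.5. The strongest candidates that did not pass, in betaTub97EF, Dyro and Msp300, had signals of 72.4, 72.3 and 72.2.

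Pooled signal ran from 72.5 to 1187, with a median of 103 and quartiles of 84.1 and 145. The median was 98.9 for the 257 autosomal intron peaks farther from a start site and 108 for the 1021 autosomal peaks within 500 bp of one. The candidates that did not pass had a median of 29.0. Of the 323 peaks, 158 (48.9%) lay above the median of all IDR peaks, and 28 (8.67%) were among the 233 strongest of the whole list. Most regions (293) were 400 bp wide, 29 were narrower and 1 was wider. Of the 25 strongest peaks 23 were under 400 bp wide, whereas all 3338 candidates that did not pass were 400 bp wide.

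**Figure D2:**
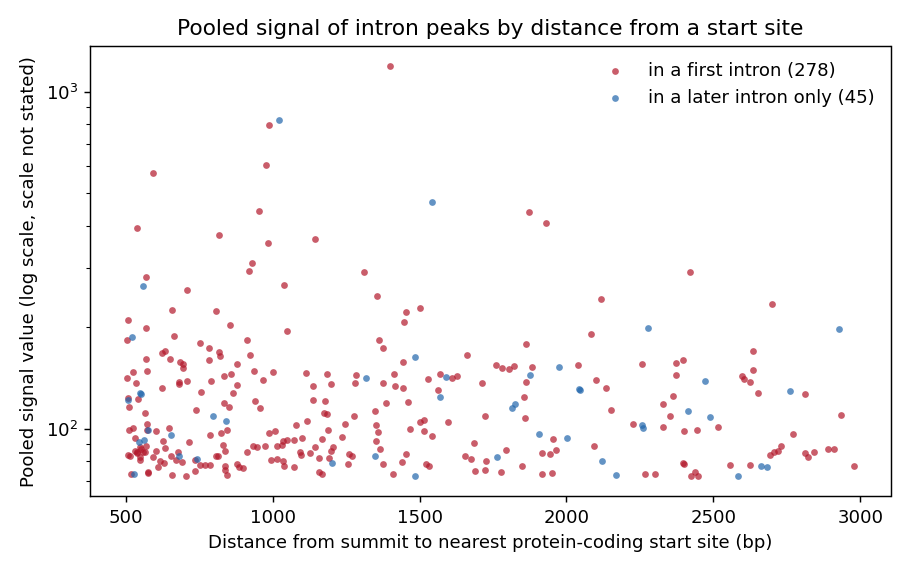
Pooled signal (y axis, log scale, no unit stated) of each of the 323 peaks against the distance of its summit from the nearest protein-coding start site (x axis, bp). Red points are the 278 peaks in a first intron and blue points the other 45; signals above 300 occur at distances from 537 to 1929 bp, and most points lie below 145 at every distance.

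The strongest peak was in ush, which encodes U-shaped, a zinc-finger cofactor of GATA transcription factors. It spans chr2L:480905-481267, in a first intron, and its summit lies 1400 bp upstream of the start of cbt, a zinc-finger gene. Its signal was 1187 in the pooled list, 615 in replicate 2 and 579 in replicate 3, so it was high in both. CG11050 (chr2L:6612549-6612881) came next with 823, and with 422 and 400 in replicates 2 and 3. Lk6, a kinase that acts on the translation factor eIF4E, had a peak at chr3R:11760899-11761201 with a signal of 793, and of 386 and 421 in the replicates. CG9663 (606) followed. A peak with a signal of 573 lay in introns of both HmgD and HmgZ, neighbouring genes for HMG-box chromatin proteins. Together these 5 had signals more than 5 times the median of the 323.

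The other 20 of the 25 strongest peaks lay in genes of varied function. Trl, the gene for GAGA factor, which keeps chromatin open at promoters and enhancers, had a signal of 471, with 230 in replicate 2 and 237 in replicate 3. CG31635 and CG9837 had 442 and 438. The junction scaffold gene cno had 408, wde, a cofactor of the histone methyltransferase Eggless, 394, and the transcription factor gene Adf1 376. The cGMP-dependent kinase gene for had 365 and the Dbf4-related gene chif, in an intron shared with Hyls1, 355. The KH-domain RNA-binding gene mub had 310, and Reph, Prps (a nucleotide synthesis enzyme), CG12769 and CG4496 had 294, 292, 292 and 281. In the tyrosine kinase gene Csk, a negative regulator of Src, the signal was 267, and in sick it was 265. The translational repressor brat had 258, the triglyceride lipase gene bmm 247, the ubiquitin-conjugating enzyme gene eff 242, CG32264 234 and the mitochondrial carrier gene SCaMC 228. All 25 were found in replicate 2, where the lowest ranked 228 among 30000 candidates, and 24 in replicate 3, where the lowest ranked 423.

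Nearly all peaks were found in each replicate on its own. At an overlap of at least 50% of the peak, 322 had a candidate in replicate 2, 320 in replicate 3 and 319 in both. The 4 exceptions, named because they are few, were JIL-1 in replicate 2 and wde, l(3)neo38 and CG10383 in replicate 3; all 323 were touched by a candidate of each replicate at an overlap of 1 bp. Among the strongest candidates of a replicate, as many as there are IDR peaks, were 270 of the peaks in replicate 2, 272 in replicate 3 and 223 in both. The median signal was 55.9 in replicate 2 and 52.2 in replicate 3. On the log2 scale the difference, replicate 3 minus replicate 2, was −0.10 at the median with an SD of 0.52 over 319 peaks. Signals were within 2-fold in 296, more than 2-fold higher in replicate 3 in 5 and more than 2-fold higher in replicate 2 in 18. Close peaks can match the same candidate: 16 of the 323 shared one with another of them in at least 1 replicate. Such a pair in ERp60 gave the widest gap, singled out after the values were seen, with the same replicate 2 candidate (82.4) for both peaks and replicate 3 candidates of 52.7 and 20.4. In the other direction the widest gap was in NaCP60E (17.0 in replicate 2 and 45.7 in replicate 3), a weak peak in the pooled list (72.6). Across the 319, Pearson's r on the log2 scale was 0.739 and Spearman's rho 0.624. Both describe regions that were chosen on signal pooled from the same replicates and that share 1 control file.

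**Figure D3:**
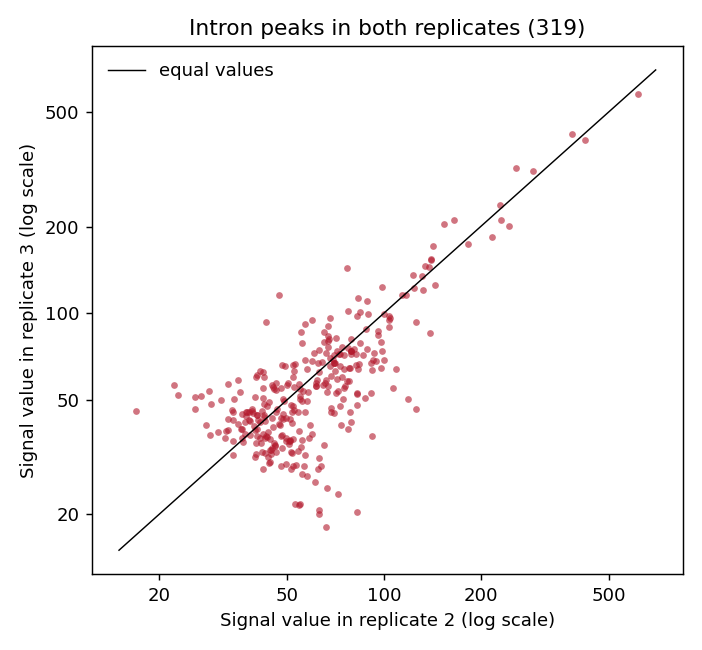
Signal of each of the 319 peaks found in both replicates, in replicate 2 (x axis) and replicate 3 (y axis), both on log scales with no stated unit; the line marks equal values. Points scatter around the line with an SD of 0.52 on the log2 scale, and the peak in ush is the highest in replicate 2, with 615, and reaches 579 in replicate 3.

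Peaks lay in first introns more often than other candidates at the same positions. A first intron of at least 1 transcript held 278 of 323 peaks (86.1%, 95% Wilson interval 81.9 to 89.4), against 74.6% of the 3338 other candidates. The odds ratio was 2.10 (1.52 to 2.91 as its 95% interval; adjusted p = 6.21e-06 by Fisher's exact test, two-sided, with Benjamini-Hochberg adjustment over 7 shares). Within distance bins of 500 bp, added after the distances had been seen, the odds ratio was 1.96 (1.41 to 2.72, adjusted p = 8.64e-05, exact stratified test). Where the nearest start was the 5′-most start of the host gene, also added later, the first intron held 109 of 119 peaks (91.6%) and 84.7% of the 1218 candidates, and the difference did not pass (odds ratio 1.96, adjusted p = 0.147, Fisher's exact test). Peaks and candidates are positions in 1 pair of replicates and not replicates themselves, so these p-values compare lists and not embryos. Intervals cover counting error only.

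Most peaks were nearest to a start of the gene that contained them. This was so for 300 peaks (92.9%), against 86.2% of the other candidates, an odds ratio of 2.10 (1.36 to 3.24, adjusted p = 9.18e-04, Fisher's exact test). With only the peaks above the median IDR signal the odds ratio was 1.79 and did not pass (adjusted exact p = 0.152), nor did it in replicate 2 alone (1.52, adjusted exact p = 0.0744). For 181 peaks (56.0%) that start was an internal one of the host gene, and 91 of these lay downstream of it. Internal here means any annotated start other than the 5′-most, however close to it, so it need not be a separate promoter. For 119 (36.8%) it was the host's 5′-most start, of which an intron is always downstream. The remaining 23 (7.12%) were nearest to another gene, as the ush peak was to cbt. Among candidates that did not pass the corresponding shares were 49.7%, 36.5% and 13.8%. Peaks lay downstream of the nearest start in 66.6% and candidates in 68.6% (adjusted p = 0.633, Fisher's exact test).

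Peaks also had other peaks close by. Another IDR peak lay within 10 kb of 214 peaks (66.3%), against 48.5% of the other candidates, an odds ratio of 2.08 (1.64 to 2.65, adjusted p = 7.13e-09, Fisher's exact test). Peaks that lie close together count as each other's neighbours, a dependence that the p-values in this paragraph do not take into account. The other candidates were chosen to overlap no IDR peak, whereas 22 of the peaks overlap another one. Over the 301 that overlap none, added later, the share was 63.8% (odds ratio 1.87, 1.46 to 2.39, adjusted p = 2.62e-06, Fisher's exact test). Among the stronger IDR peaks alone, with peaks and neighbours both limited to those above the median signal, the odds ratio was 1.13 (adjusted exact p = 0.563). With neighbours of any IDR signal, the shares in 4 groups of peaks by signal, strongest first, were 62.5%, 67.9%, 64.2% and 70.4%. The median gap from a summit to the next IDR summit was 4768 bp, 56 peaks had one within 1 kb, and 17 had none within 50 kb. An IDR peak at the nearest start site itself accompanied 54 peaks (16.7%), against 12.3% of candidates. That difference stood at the limit of the test (odds ratio 1.43, adjusted p = 0.05004, which does not pass at 0.05, Fisher's exact test); it passed within distance bins (adjusted exact p = 0.0487) and over the 301 peaks that overlap no other (odds ratio 1.48, adjusted exact p = 0.0326).

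Shares inside a non-coding gene (10 peaks, 3.10%, against 3.30%) and in introns of 2 or more genes (19 peaks, 5.88%, against 5.51%) did not differ detectably from those of candidates that did not pass (adjusted p = 1 and 0.932, Fisher's exact test). Those in a non-coding gene included peaks in the zinc-finger and homeobox repressor gene zfh1 (signal 164) and in kis (142), which encodes a chromodomain ATPase. Counted once per region, the shortest intron around the summit had a median length of 5235 bp for peaks and 5209 bp for other candidates. The longest host gene, counted in the same way, had medians of 17488 and 18325 bp.

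Intron peaks more than 3000 bp from a start site lay in first introns in 62.3% of 257, and 77.4% were nearest to a start of their host gene. Another IDR peak lay within 10 kb of 66.3% of the nearer peaks, against 53.3% of the farther ones. These shares depend on the distance that separates the groups, since IDR peaks are dense at start sites, so no test of them is given. A peak at the nearest start accompanied 16.7% of the nearer and 17.1% of the farther peaks (adjusted p = 1, Fisher's exact test). With distances measured only to the 5′-most start of each gene, which changes both groups, the odds ratio was 1.63 (adjusted exact p = 0.0296).

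**Figure D4:**
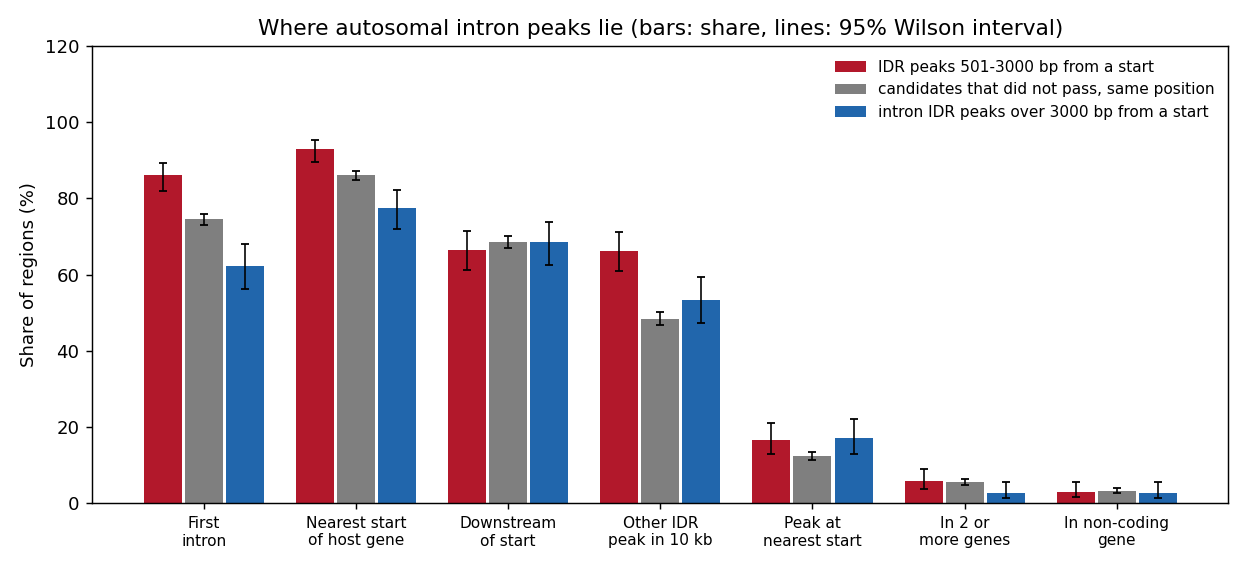
Share of regions (y axis, %) with each of 7 features of position (x axis), for the 323 intron peaks 501 to 3000 bp from a start site (red), the 3338 candidates at such positions that did not pass (grey) and the 257 intron peaks farther away (blue); bars are shares and lines 95% Wilson intervals. Red bars stand above grey ones for the first intron (86.1% and 74.6%), a start of the host gene (92.9% and 86.2%) and another IDR peak within 10 kb (66.3% and 48.5%).

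The peaks fell in 286 genes, of 1809 autosomal protein-coding genes with any candidate at such a position (15.8%). One peak was found in 237 genes, 2 in 42 and 3 or more in 7. The gene with most, shn, encodes a zinc-finger cofactor of the BMP effector Mad, and its 4 peaks were all of modest signal (113, 86.5, 79.3 and 78.1). In ush the 3 peaks were unequal: beside the one at 1187 lay one of 150 and one of 80.6, both upstream of an internal ush start. Trl likewise held 1 strong peak (471) and weaker ones of 145 and 82.9. In crp, which encodes a bHLH protein, 3 peaks of 101.2, 138 and 120 stood in a row, 2516, 1862 and 1179 bp downstream of the start. Doa, a LAMMER kinase gene, had peaks of 130, 88.9 and 76.6, and CG32264 of 234, 100.5 and 78.4. Of the 3 in CG10543 (156, 136 and 73.2), the last pair overlap and match the same candidate in each replicate.

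Host genes were counted in 18 lists of developmental pathways and gene families. Of 519 list genes, 57 hosted a peak, beside 286 of all 13945 protein-coding genes. Both totals include genes on the X chromosome and genes with no candidate at such a position. The share of genes with a candidate that hosted a peak was above the 15.8% of all genes in 14 lists and below it in 4. Each list holds few such genes, the number of candidates per gene was not taken into account, and no list was tested.

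In receptor tyrosine kinase and Ras signalling 7 of 20 genes with a candidate hosted a peak. They included Star (symbol S), which helps to release EGF-type ligands (signal 179), the insulin receptor gene InR (170, with 119 in replicate 2 and 50.5 in replicate 3) and the adaptor gene drk (156). In Hippo, JAK-STAT and JNK signalling the count was 5 of 12, with the kinase gene msn (152), the scaffold gene kibra (139) and the phosphatase gene Ptp61F (118). For insulin and TOR signalling it was 3 of 9, in Lk6, InR and Sik3. In the TGF-beta pathway 3 of 9 hosted one: the nuclear effector Mad (225, with 98.6 and 123 in replicates 2 and 3), the BMP receptor wit (146) and shn (113). The Wnt and Hedgehog list had 3 of 15, namely the Hedgehog receptor ptc (88.7), the secreted Wnt antagonist Notum (85.1) and the ligand Wnt4 (78.1), all weak. The Notch list had 1 of 10, the ubiquitin ligase gene neur (155).

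Transcription and chromatin regulators were counted by family. Polycomb and Trithorax group regulators had a peak in 4 of 10 genes, among them Trl (471), kis (142) and psq (91.7). For bHLH and forkhead regulators the count was 5 of 15, with the hypoxia factor gene sima (141), crp (138) and the lipid regulator SREBP (116). Zinc-finger developmental regulators had 3 of 16, in ush (1187), zfh1 (164) and fru (74.1). Homeobox genes had 1 of 18, NK7.1 (85.4), and ecdysone response genes and nuclear receptors 1 of 13, Hr3 (87.3). These last 2 lists had the lowest shares of the 18 (5.56% and 7.69%).

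Among effector genes, the cytoskeleton list had a peak in 6 of 24, led by the cofilin gene tsr (207), RhoGEF64C (132) and the actin regulator ena (127). Neuronal and glial genes had 6 of 18, with brat (258), the transcription factor grh (154) and the netrin receptor fra (152). RNA-binding and splicing genes had 5 of 15, with mub (310), brat (258) and mbl (130). Muscle genes had 3 of 13, in mbc (110), the tropomyosin gene Tm1 (104) and the MyoD relative nau (72.6). Cell adhesion and extracellular matrix genes had 2 of 14, the polarity genes scrib (100.3) and crb (80.6). Translation factors had 2 of 3, in pAbp (122) and bel (88.1), and the circadian and hormone synthesis list 1 of 6, the insulin-binding ImpL2 (194).

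Sequence around the summits was lower in G and C than that of other candidates, with a median of 35.8% in the 201 bp window, against 41.3% for candidates that did not pass. It was 36.3% for the farther intron peaks and 37.3% for promoter peaks. Words were therefore compared within 5% bins of GC content, on both strands and within 100 bp of the summit, by an exact stratified test with Benjamini-Hochberg adjustment.

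Of all 6-base words, each counted with its reverse complement, 12 (0.577%) differed between the peaks and the candidates that did not pass, 11 of them more frequent in peaks and 1 less. ACACTG occurred in 75 peaks (23.2%), against 10.1% of candidates (odds ratio 2.53, 95% interval 1.89 to 3.37, adjusted p = 6.20e-06, exact stratified test). ACAGTG occurred in 78 (24.1%), against 11.3% (odds ratio 2.42, 1.83 to 3.22, adjusted p = 6.26e-06, exact stratified test). The next were CTGTGC (18.6% against 10.6%, odds ratio 2.20), AGTGTA (21.1% against 9.71%, odds ratio 2.07), AGAGAG (17.6% against 11.0%, odds ratio 2.10) and CGCACA (16.1% against 11.98%, odds ratio 2.11). The word that was less frequent in peaks was GCCAGC (3.72% against 14.2%, odds ratio 0.355, adjusted p = 0.0256, exact stratified test). Against flanks of the same peaks, centred 400 bp to either side of the summit, 8 of the 12 words passed again. AGAGAG (odds ratio 1.46), CGCACA (1.56) and GCCAGC (0.385) were among the 4 that did not. Of the 11 more frequent words, 4 contain the 5 letters CACTG or their reverse complement, so they were counted in part on the same matches.

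Either leading word was present in 133 peaks (41.2%), against 18.7% of candidates that did not pass, 31.5% of farther intron peaks and 31.5% of promoter peaks. Both words were picked for being more frequent in these peaks than in those candidates. That gap was thus fixed by the choice, which also raises the share of the peaks beside the other groups. In 4 equal groups of peaks by signal, from the strongest down, the share was 41.3%, 44.4%, 40.7% and 38.3%. Of the 25 strongest peaks 10 held one. Longer forms of the words, looked at after these results, are given as a description. TACACTG occurred in 38 peaks (11.8%), against 3.12% of candidates that did not pass, and in 9.34% of farther intron peaks and 4.02% of promoter peaks. GCACAGTG occurred in 19 peaks (5.88%), against 1.498%, and in 3.11% and 4.02% of the same 2 groups.

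Letters around ACACTG also differed between groups, again as a description. T stood directly before the word at 52.5% of 80 matches in peaks and 30.1% of 356 in candidates that did not pass. In farther intron peaks it did so at 54.5% of 55 matches, and in promoter peaks at 18.8% of 223. After the word, at least 4 of the 5 positions from the third to the seventh were A at 43.8% of matches in peaks and 50.9% of 55 in farther intron peaks. The share was 16.01% in candidates that did not pass and 15.2% of 223 matches in promoter peaks. The sites in CG11050, tmod, LpR2 and ImpL2 shown above are of this kind.

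The leading words were most frequent 50 to 100 bp from the summit. In 50 bp bins, one was found in 15.5% of peaks between 100 and 50 bp on the left and in 14.9% between 50 and 100 bp on the right. In the bins next to the summit the shares were 8.36% and 8.98%. In candidates that did not pass no bin within 100 bp was above 5.66% or below 4.70%. The words were picked on these same regions within 100 bp of the summit, so the gap between peaks and candidates there follows from that choice. With the window narrowed to 50 bp on each side, which leaves fewer matches, no 6-base word passed the test, with odds ratios of 1.73 for ACACTG (adjusted exact p = 0.554) and 2.04 for ACAGTG (adjusted exact p = 0.477). Left and right are those of the genome's plus strand.

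**Figure D5:**
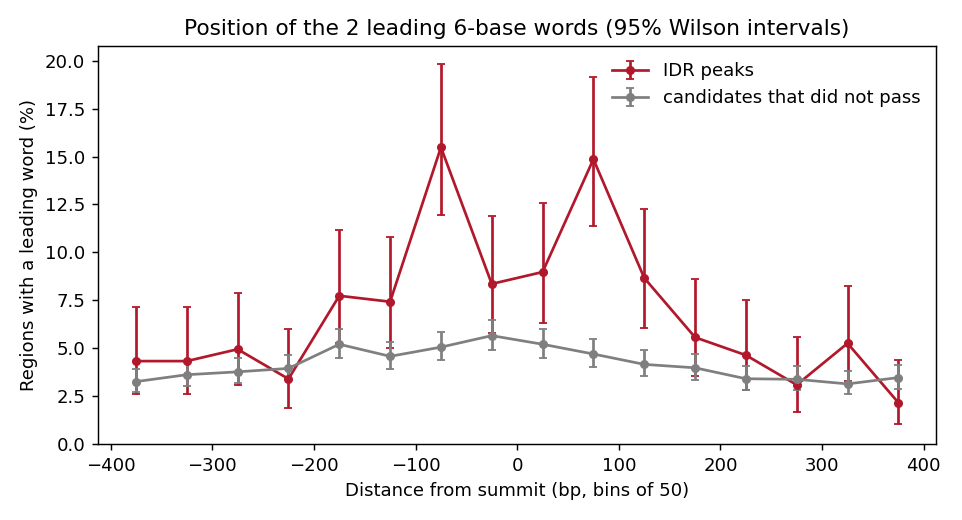
Share of regions (y axis, %) with ACACTG or ACAGTG on either strand in each 50 bp bin from the summit (x axis, bp), for the 323 peaks (red) and the 3338 candidates that did not pass (grey); lines are 95% Wilson intervals. The red curve has its maxima at 15.5% and 14.9% in the bins 50 to 100 bp from the summit on either side, and the grey curve stays at or under 5.66%.

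Against the farther intron peaks none of these words differed by the exact stratified test (0%; 93 had an unadjusted p under 0.05, and the smallest adjusted p was 0.949). ACACTG occurred in 23.2% of the nearer and 18.3% of the farther peaks (odds ratio 1.31, 95% interval 0.870 to 1.97). Against promoter peaks 17 words differed (0.817%), 7 more frequent in the intron peaks and 10 less. GTACAC was more frequent, with 15.5% against 6.95% (odds ratio 2.53, adjusted p = 0.00228, exact stratified test). CGATAG, in 2.48% against 18.2%, was the most depleted by its p (odds ratio 0.114, adjusted p = 1.31e-11, exact stratified test). The comparison with promoter peaks was added after the data had been seen.

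Consensus sequences of 35 known factors and elements were compared in the same way. None differed between the peaks and candidates that did not pass (0 of 35, 0%, exact stratified test; 6 had an unadjusted p under 0.05). The 2 closest were GAGAGAG, bound by GAGA factor (6.50% against 4.31%, odds ratio 2.24, adjusted exact p = 0.0687), and the E-box CATATG (12.1% against 6.89%, odds ratio 1.75, adjusted exact p = 0.0687). Against farther intron peaks none differed either (0%; 3 had an unadjusted p under 0.05). Against promoter peaks 4 of 35 differed (11.4%). TATCGATA, the element of DREF and BEAF-32 at housekeeping promoters, was in 0 of 323 intron peaks and 6.95% of 1021 promoter peaks (adjusted p = 5.64e-08, exact stratified test). GGTCACACT, bound by the promoter factor M1BP, was in 0 and 3.13% (adjusted exact p = 0.00545); a count of 0 of 323 allows a share of up to 0.929%. CGATA was in 19.5% and 37.6% (odds ratio 0.404, adjusted exact p = 4.02e-08), and CATATG in 12.1% and 5.88% (odds ratio 2.15, adjusted exact p = 0.00545). A match to a consensus is a description of the letters and shows nothing of which protein was bound.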

How the data were processed

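Candidate regions and IDR peaks were used as the authors deposited them for dm6, from 2 replicates, 1 pooled list and 1 control file per the deposited notes; the aligner, peak caller, IDR threshold and depth were not given in the sources used here. The signal of a region is the value deposited by the authors, with no stated scale, used only within a list. The deposited −log10 q-value was not used. The summit was the region's start plus the deposited offset. Genes and start sites came from Ensembl release 115 (BDGP6.54), sequence from RefSeq's Release 6. Shares were compared with Fisher's exact test over 7 shares (Python 3.11.15, scipy 1.17.1). Words were compared by an exact stratified test in 5% GC bins with Mantel-Haenszel odds ratios. Both used Benjamini-Hochberg adjustment with a threshold of 0.05. Only the word test was checked on simulated data, in which words were drawn independently, whereas real words overlap. Named genes are hosts of the 25 strongest peaks, genes with 3 or more, up to 3 per list, the 3 weakest, and those at the limits. The peaks, lists, words and tests were chosen with earlier results of these data known. Of 527 list symbols, 11 were matched by a synonym and 6 not at all. Alternatives were a stricter signal threshold, each replicate alone, 5′-most starts, other distance limits and windows, no chromosome 4, no GC bins, and other comparison regions. Lists on dm3 were not used.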

Additional observations from a re-analysis of the deposited data

How the results depend on the processing

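The first-intron odds ratio against candidates that did not pass was past the threshold under every alternative planned. No paired analysis was possible because there is 1 group. The limits are the absence of an analysed control, unknown depth, annotation-based positions and candidates that share 1 control file. The cause of the changes below was not tested.

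The peaks numbered 158 above the median IDR signal and 191 at over 1000 bp. Against candidates that did not pass, the odds ratio above the median IDR signal was 1.79 for a start of the host gene and did not pass. For another peak within 10 kb, with neighbours also limited to those above the median, it was 1.13 and did not pass. For a non-coding gene the ratio turned to 1.36 above the median IDR signal. It was 1.06 at over 1000 bp, 1.03 without chromosome 4 and 1.01 over peaks that overlap no other IDR peak. With 1 replicate left out, the ratio for a start of the host gene ran from 1.52 to 2.10 and did not pass without replicate 3, and that for a peak at the nearest start from 1.34 to 1.70 and passed without replicate 2. A peak at the nearest start also passed with 5′-most starts (1.56), at over 1000 bp (1.64), within distance bins (1.43) and over peaks that overlap no other (1.48). The first-intron ratio was 1.96 and did not pass where the nearest start was the host's 5′-most. The downstream share turned to 1.21 with 5′-most starts.

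Against farther intron peaks, the odds ratio for another peak within 10 kb was 1.72. Above the median IDR signal, with neighbours limited in the same way, it turned to 0.841. With 1 replicate left out it ran from 1.37 to 1.59. A peak at the nearest start turned to 1.63 with 5′-most starts and passed there, turned to 1.12 at over 1000 bp, and ran from 0.685 to 1.15 with 1 replicate left out. A non-coding gene turned to 0.606 with 5′-most starts and ran from 0.890 to 2.38. With 5′-most starts the ratio for introns of 2 or more genes reached 3.56 and passed, and the downstream ratio turned to 2.41. An intron is always downstream of its host's 5′-most start, and distance to such starts separates the groups. No test of the downstream ratio is therefore given.

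Consensus sequences that differed numbered 1 to 2 with 1 replicate left out and 4 against promoter peaks. The 12 words became 6 above the median IDR signal, 7 at 501 to 2000 bp, 5 at over 1000 bp, 0 within 50 bp, 145 without GC bins and 0 against farther intron peaks, where CTGTGC and AGTGTA turned to 0.995 and 0.978. The odds ratios of the 11 more frequent words, 1.82 to 2.53, were 1.76 to 2.85 above the median IDR signal, 1.70 to 2.33 at 501 to 2000 bp, 1.63 to 3.27 at over 1000 bp and 1.45 to 2.11 within 50 bp, where fewer peaks or matches were tested. With 1 replicate left out 12 to 15 differed, of which 7 to 9 were among the 12. Against flanks of the same peaks 11 differed, 8 of them among the 12. Without GC bins 10 of the 12 passed again. CGCACA did not pass there (odds ratio 1.41), nor without replicate 2 (1.41). An overlap of 1 bp found 100% in either replicate.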
